A study of Mus musculus with 16 samples.

Results

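The genes described here are 5 odorant receptor genes of mouse chromosome 2, Olfr1032, Olfr52, Olfr1045, Olfr1054 and Olfr1056, taken from 19505 measured genes that included 1091 odorant receptors, 284 of them on chromosome 2. They were chosen from these arrays, because smoke odour moved their ratio between 2 sorted cell fractions towards the fluorescent one mainly by a fall in the other fraction. For Olfr1032 this depends on arrays at the level of receptors the tissue should lack, as given below beside its values. Their values across the groups are therefore a description and were not tested. Tests are given for receptors outside the set, with p-values adjusted over all measured genes. The set was a list of names, and no numeric threshold came with it.

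RNA of sorted cells was hybridised to 16 mouse Clariom S arrays, 4 for each of 4 groups. All groups came from S100a5-tauGFP mice, in which green fluorescent protein (GFP) is made under the control of the S100a5 gene, and the 24 animals of 7 to 12 weeks, males and females, were combined into 8 pools of 3. The Odor GFP+ and Odor GFP- arrays held the 2 sorted fractions of olfactory mucosa from 4 pools exposed to cigarette smoke odour. The Vehicle GFP+ and Vehicle GFP- arrays held the fractions of 4 pools exposed to filtered air. Every animal was kept for 40 h in a chamber with an air flow of 3.1 L per min, and 10 s of odour or filtered air was given every 20 min after the first 26 h. The odour is taken from the title and the sample labels, which give cigarette smoke, whereas the design text gives bourgeonal. A replicate is a pool of animals, so the spread between arrays is the spread between pools. Precision is limited by having 4 arrays a group.

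Each mature olfactory sensory neuron transcribes mainly a single odorant receptor gene, a G protein-coupled receptor that binds volatile molecules at the cilia and signals through the olfactory G protein and adenylyl cyclase. S100a5, a calcium-binding protein gene, is expressed in olfactory sensory neurons according to their recent activity, so in these mice an activated neuron becomes fluorescent and carries its receptor's RNA into the GFP+ fraction. The level of a receptor in a sorted fraction then depends on how many neurons that express it were sorted there and on how much of the RNA each cell holds. It also depends on the share of RNA in the fraction that comes from other cells. In bulk arrays fewer cells and less RNA per cell cannot be told apart.

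The 5 genes lie in a single cluster on chromosome 2 that holds 221 of the measured receptors, where a gap of over 1000000 bases was taken to end a cluster. In genome order within it (assembly GRCm38.p6, used for names and order), Olfr1032 was at place 31, Olfr52 at 41, Olfr1045 at 42, Olfr1054 at 50 and Olfr1056 at 51. Thus 2 pairs of direct neighbours, Olfr52 with Olfr1045 and Olfr1054 with Olfr1056, stood 7 measured receptors apart, and Olfr1032 stood 9 measured receptors before the first pair. The MOR nomenclature, which groups mouse receptors by protein similarity, names Olfr1032 as MOR199-1, Olfr52 as MOR185-6, Olfr1045 as MOR185-2, Olfr1054 as MOR188-2 and Olfr1056 as MOR186-2. Olfr52 and Olfr1045 were therefore the only pair from the same MOR family. Each gene was measured by 1 probe set. No ligand is assigned to these 5 receptors here.

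Sequence upstream of the genes is shown because the 5 were selected as moving together and homeodomain and Ebf-type sites are known features of mouse odorant receptor promoters. RefSeq windows of 300 bases (GRCm38.p6), 250 before and 50 after the start of the gene model, were found for 4 of the 5, all but Olfr1054. The models of Olfr1032, Olfr52 and Olfr1045 begin at the start codon ATG and hold coding sequence only, so in these windows the first 250 bases precede the start codon, the last 50 are coding, and the transcription start may lie elsewhere. Motifs were sought as exact letters on both strands. TAATTG, whose other strand reads CAATTA, was found in Olfr1032 and Olfr1056, and TATAAA in Olfr52 and Olfr1056. TAATTA, which differs from TAATTG in its last letter, and an Ebf-type core of TCCC and GGGA set 2 bases apart were in none of the 4. The 4 matches are given with their surroundings as 30 bases in the gene's own direction, with the motif in capitals. They lie at chr2:86007606-86007635 on the plus strand (Olfr1032), at chr2:86356651-86356680 on the minus strand (Olfr1056, first line), at chr2:86182148-86182177 on the minus strand (Olfr52) and at chr2:86356481-86356510 on the minus strand (Olfr1056, last line).
Olfr1032 TAATTG: tcaaaacagtttCAATTAtttttctatttt
Olfr1056 TAATTG: tatttgcacacaCAATTAtgaggaaattat
Olfr52 TATAAA: atgtaacaaaagTATAAAtatgtcatctga
Olfr1056 TATAAA: aaatgaagaacaTATAAAcataggattctc
The motifs began 160, 231, 56 and 61 bases before the model start in the order of these lines. TAATTG was in 8.0% of all 32851 windows and in 23.2% of 948 odorant receptor windows. TATAAA was in 13.6% of all windows and 41.0% of receptor windows, TAATTA in 5.29% and 18.6%, and the Ebf-type core in 0.904% and 0.527%. The letters A and T made up 73.7% of the Olfr1032 window, 56.7% for Olfr52, 65.3% for Olfr1045 and 69.0% for Olfr1056, with a median of 65.0% over receptor windows and 47.3% over all windows. A match is a description of these letters and not evidence of a bound site, and the absence of a match says only that the letters are not in the window.

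S100a5 followed the sort in both exposures. S100a5 averaged 17.0 ± 0.15 in Odor GFP+ and 15.9 ± 0.25 in Odor GFP- cells, and 16.5 ± 0.06 in Vehicle GFP+ and 15.2 ± 0.24 in Vehicle GFP- cells (log2, SD, n = 4 each). S100a5 was higher in GFP+ cells by 1.15 in Odor (limma, adjusted p = 6.45e-06) and by 1.21 in Vehicle pools (limma, adjusted p = 2.88e-06), and its ratio between fractions differed by -0.07 between exposures (SE 0.20, limma, adjusted p = 0.987). The 16 markers of mature olfactory sensory neurons had array means of 16.1 to 16.2 in Odor GFP+, 15.9 to 16 in Odor GFP-, 16.2 in Vehicle GFP+ and 15.8 to 16 in Vehicle GFP- cells, so mature neurons were measured in both fractions. Omp, the olfactory marker protein gene of mature neurons, averaged 18.3 ± 0.01 in Odor GFP+, 18.2 ± 0.05 in Odor GFP-, 18.2 ± 0.03 in Vehicle GFP+ and 18.1 ± 0.06 in Vehicle GFP- cells (SD, n = 4 each), close to the highest values on the arrays, so that it cannot show a lack of change. The 8 immune markers averaged 13.4 to 14.5 in Odor GFP- and 13.9 to 14.7 in Vehicle GFP- arrays, with a median difference per gene of -0.34. The 4 measured gland and respiratory markers averaged 8.65 to 9.22 in Odor GFP- and 8.69 to 10.9 in Vehicle GFP- arrays, with a median difference of -0.85, so these too were lower in Odor GFP- cells on this summary. The 1 measured red blood cell marker had 10.1 to 12.3 in Odor GFP- and 10.9 to 12.4 in Vehicle GFP- arrays, a difference of -0.65. The 8 sustentacular (supporting cell) markers averaged 11.2 to 12.2 in Odor GFP+ and 11.1 to 11.4 in Vehicle GFP+ arrays, and 11.7 to 12.4 in Odor GFP- and 11.8 to 12.4 in Vehicle GFP- arrays. The 8 markers of immature olfactory sensory neurons averaged 12.4 to 12.6 in the GFP+ arrays of both exposures. They averaged 13.4 to 13.6 in Odor GFP- and 13.3 to 13.6 in Vehicle GFP- arrays. The fractions differed in other cells. In Vehicle pools the median GFP+ minus GFP- difference was -6.48 for immune, -3.07 for globose basal and -3.63 for microvillar markers. This difference was -0.75 for sustentacular and -0.08 for immature neuron markers. It was 0.32 for mature neuron markers. Globose basal markers averaged 5.71 to 6.26 in Vehicle GFP+ arrays, below the vomeronasal receptor level there (6.41 to 6.51, described below). The size of their difference is therefore not read. Horizontal basal markers averaged 5.27 to 5.62 in Vehicle GFP+ and 5.08 to 5.49 in Vehicle GFP- arrays. Both lay below the vomeronasal level of their group, so nothing is read from their difference of 0.18. None of the markers in these lists passed between Odor and Vehicle in either fraction, and their part in the results was not tested.

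In GFP- cells, all 5 receptors were lower after smoke odour, with measured differences of -2.90 to -1.54 on the log2 scale (median -2.02), of which the sizes for Olfr1054 and Olfr1032 could only be bounded, for the reason given with the vomeronasal receptors. Meanwhile the median difference over all 1091 odorant receptors was 0.16 and over all genes 0.01. As measured, the Odor and Vehicle arrays did not overlap for any of the 5. For Olfr1032 this was lost once dim values were raised, as given below. Across all genes, 1.3% had Odor GFP- arrays entirely below the Vehicle ones and 0.113% passed the limma test as lower. Among odorant receptors these shares were 4.77% and 2.02%. As the genes were chosen by this fall, nothing is read from their count.

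Olfr1054 measured 6.10, 4.79, 5.22 and 5.88 in Odor GFP- cells of pools 1 to 4, against 8.32, 8.23, 8.64 and 8.39 in Vehicle GFP- cells. As measured, the highest Odor array lay more than 2 log2 units below the lowest Vehicle array. The Vehicle arrays lay close together (SD 0.17, n = 4). The difference of means was -2.90 (SE 0.27), with every Odor array too dim for the size to be read beyond a fall of at least 2.14.

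Olfr1056, the direct neighbour of Olfr1054, measured 9.61, 8.86, 8.38 and 9.86 in Odor GFP- cells, against 11.49, 11.46, 11.01 and 10.88 in Vehicle GFP- cells. Its groups were separated by about 1 log2 unit, with Odor pools 2 and 3 lowest. The difference was -2.03 (SE 0.25), a 4.08-fold lower level.

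Olfr52 measured 6.38, 5.97, 7.44 and 7.20 in Odor GFP- cells, against 8.41, 9.14, 8.22 and 9.32 in Vehicle GFP- cells. Both groups were spread over more than 1 log2 unit and still did not overlap. The difference was -2.02 (SE 0.32) as measured, with 2 of its 4 Odor arrays dim in the same way. Olfr1045, its direct neighbour and MOR185 relative, measured 7.36, 6.17, 6.88 and 8.15 in Odor GFP- cells, against 9.25, 9.18, 8.25 and 9.28 in Vehicle GFP- cells. Here the groups almost touched, since Odor pool 4 at 8.15 lay just under Vehicle pool 3 at 8.25. The difference was -1.85 (SE 0.38), or 3.61-fold lower.

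Olfr1032 measured 4.98, 5.21, 5.73 and 5.81 in Odor GFP- cells, against 7.13, 7.32, 6.32 and 7.11 in Vehicle GFP- cells. Vehicle pool 3 was the lowest of its group and, as measured, lay 0.51 above the highest Odor array. This gap was lost once dim values were raised, as given with the vomeronasal receptors. The difference was -1.54 (SE 0.21), and as all its Odor arrays were dim it is read as a fall of at least 0.713.

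**Figure D1:**
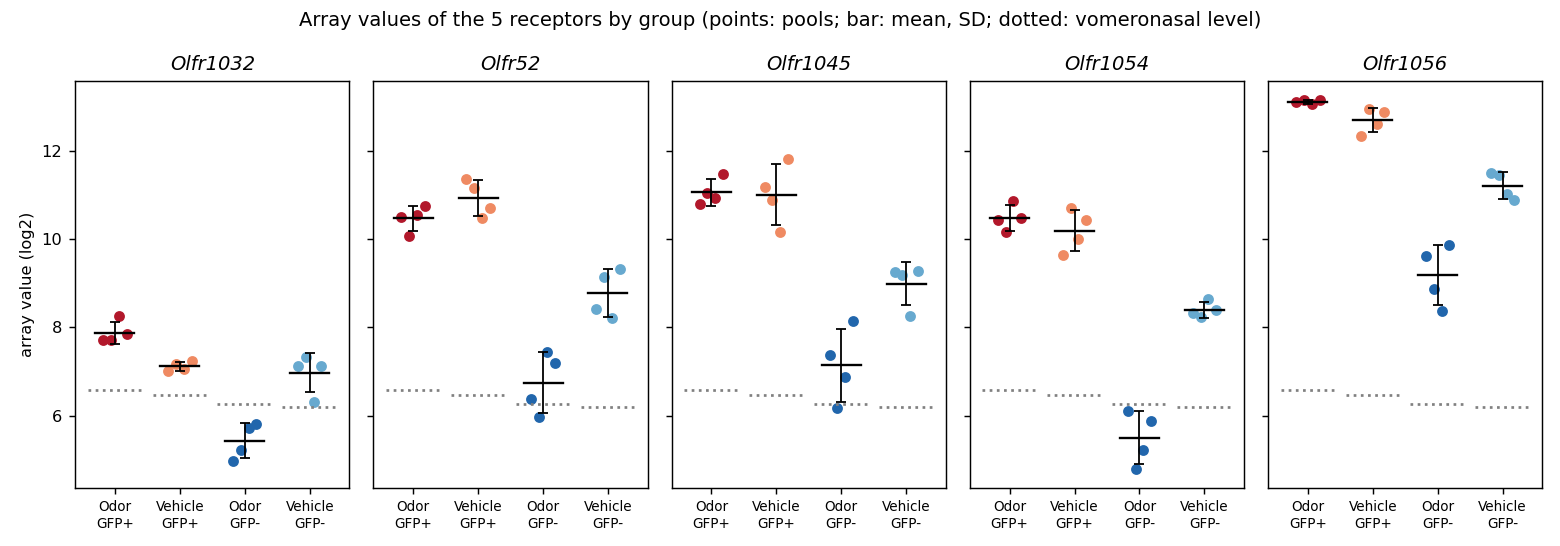
Array values (vertical axis, log2) of the 5 receptors in Odor GFP+, Vehicle GFP+, Odor GFP- and Vehicle GFP- cells, with a point for each of 4 pools, a bar at the mean and whiskers of 1 SD; the dotted lines mark the mean 95th percentile of the vomeronasal receptors in each group. In every panel the Odor GFP- points are the lowest and lie below all Vehicle GFP- points, and those of Olfr1032 and Olfr1054 lie under the dotted line.

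Vomeronasal receptors, which this tissue should lack, gave a gauge of how low an array value can be read. The 95th percentile of the 321 measured vomeronasal receptors averaged 6.26 over the Odor GFP- arrays. All 4 Odor GFP- arrays of Olfr1032 and all 4 of Olfr1054 were at or below their own array's percentile, and so were 2 of 4 for Olfr52 and 0 of 4 for Olfr1045 and Olfr1056. Odor GFP- pool 2 of Olfr1045, at 6.17, lay just above its array's percentile of 6.15. With values at or below the percentile raised to it, Olfr1054 fell by at least 2.14 (at least 4.40-fold lower in Odor). Olfr1032 fell by at least 0.713 (at least 1.64-fold lower). Odor GFP- pool 1 of Olfr1032 was then at 6.54, above its Vehicle GFP- pool 3 at 6.32, so these groups overlapped. For Olfr52 the difference was then -1.94. None of the 5 genes had a group mean at or below this level in the other 3 groups, and none of their values exceeded 16, the log2 ceiling of a 16-bit scanner. Other genes did exceed it, S100a5 and Omp among them, in 0.840% of all table values and up to 18.6. The log2 scale of the table may therefore be wider than that of the scanner, which would enlarge every difference and fold given here, and its factor is not known.

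In GFP+ cells the differences between exposures were -0.46 to 0.76 (median 0.29, against -0.05 for all odorant receptors), with only Olfr52 below 0. As the 5 were chosen for a shift mainly in GFP- cells, nothing is read from the size of these differences. Olfr1032 measured 7.71, 7.71, 8.25 and 7.84 in Odor GFP+ cells, against 7.02, 7.17, 7.06 and 7.23 in Vehicle GFP+ cells. All its Odor arrays were above all Vehicle arrays, with a difference of 0.76 (SE 0.21). Olfr1056 measured 13.10, 13.16, 13.06 and 13.15 in Odor GFP+ cells, against 12.34, 12.94, 12.61 and 12.88 in Vehicle GFP+ cells. Its Odor arrays agreed to within 0.10 and also lay above all Vehicle arrays, by a mean of 0.42 (SE 0.25). Non-overlap in this direction was found in 1.66% of all genes and 5.5% of odorant receptors, and 0.103% of all genes passed as higher.

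The other 3 receptors overlapped between exposures in GFP+ cells. Olfr1054 measured 10.43, 10.16, 10.86 and 10.48 in Odor GFP+ cells, against 9.63, 10.69, 9.99 and 10.43 in Vehicle GFP+ cells, a difference of 0.29 (SE 0.27). Olfr1045 measured 10.78, 11.05, 10.92 and 11.48 in Odor GFP+ cells, against 11.18, 10.88, 10.15 and 11.82 in Vehicle GFP+ cells, a difference of 0.05 (SE 0.38). Olfr52 measured 10.50, 10.07, 10.55 and 10.74 in Odor GFP+ cells, against 11.37, 11.17, 10.48 and 10.70 in Vehicle GFP+ cells, a difference of -0.46 (SE 0.32).

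**Figure D2:**
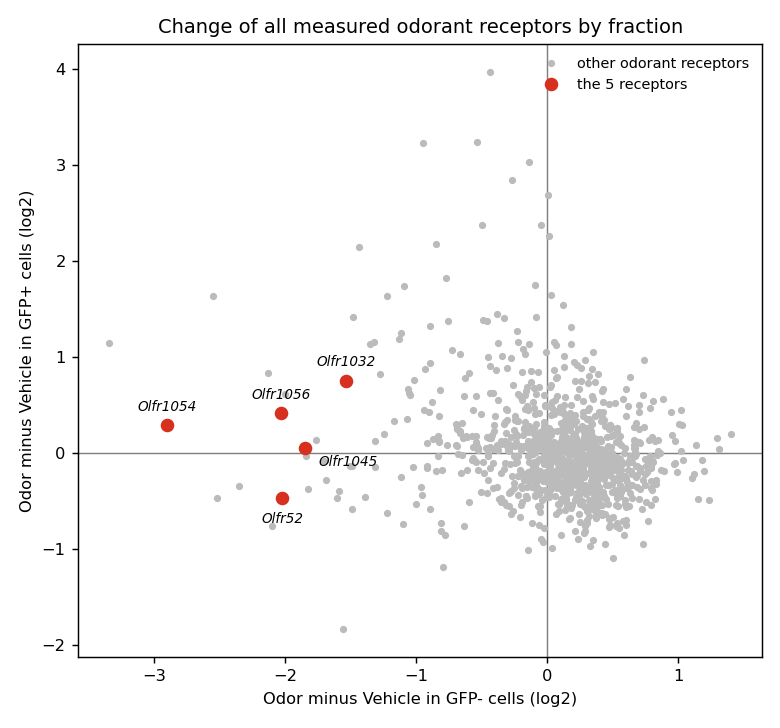
Difference between Odor and Vehicle (log2) of each of 1091 odorant receptors in GFP- cells (horizontal axis) and GFP+ cells (vertical axis), with the 5 receptors in red. The measured differences of the 5 lie between -2.90 and -1.54 on the horizontal axis and between -0.46 and 0.76 on the vertical axis; the horizontal positions of Olfr1032 and Olfr1054 rest on Odor values at or below the vomeronasal level, and the axes share no arrays.

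Within pools, the difference between the fractions was larger in Odor than in Vehicle pools for each receptor. For Olfr1054, GFP+ exceeded GFP- by 4.33, 5.37, 5.64 and 4.60 in Odor pools 1 to 4 and by 1.31, 2.46, 1.35 and 2.04 in Vehicle pools 1 to 4. For Olfr1056 it did so by 3.28 to 4.68 over the Odor pools and by 0.858 to 2.00 over the Vehicle pools. For Olfr52 the ranges were 3.11 to 4.12 in Odor and 1.38 to 2.96 in Vehicle pools. For Olfr1045 they were 3.34 to 4.88 in Odor and 1.70 to 2.53 in Vehicle pools, and for Olfr1032 2.03 to 2.74 in Odor and -0.151 to 0.740 in Vehicle pools. With the dim Odor GFP- values raised to the vomeronasal level, the Odor pools had at least 3.89 to 4.70 for Olfr1054 and at least 1.17 to 2.08 for Olfr1032, and 3.11 to 3.97 for Olfr52. No Odor pool overlapped a Vehicle pool for any of the 5, with or without the raised values. Across all genes 2.0% had such non-overlap upward, as had 8.34% of odorant receptors.

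The ratio shift is the GFP+ minus GFP- difference in Odor less that in Vehicle, and over all odorant receptors its median was -0.22. It was 2.45 (SE 0.36) for Olfr1056, 1.91 (SE 0.54) for Olfr1045 and, as measured, 1.56 (SE 0.45) for Olfr52. For Olfr1054 the measured shift of 3.19 (SE 0.38) is read as at least 2.43, and for Olfr1032 that of 2.29 (SE 0.30) as at least 1.47. These limits leave the order of the 5 unsettled. The GFP- fall made up 82.9% of the shift for Olfr1056, 97.2% for Olfr1045 and 130% for Olfr52, where a value over 100% means that GFP+ cells were also lower. For Olfr1054 it made up 90.8% as measured and 87.9% with the dim values raised. For Olfr1032 it made up 67% as measured but 48.5% with the dim values raised, so whether most of its shift lay in GFP- cells depends on values that cannot be read. Of all genes, members of the set included, 33 (0.169%) passed the limma test for a higher ratio. Olfr1257, a chromosome 2 receptor in that list that is not in the set, had a share of 63.2%. Of receptors in the list on other chromosomes, Olfr982 had 92.7%, Olfr1496 76.4% and Olfr878 4.36%.

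**Figure D3:**
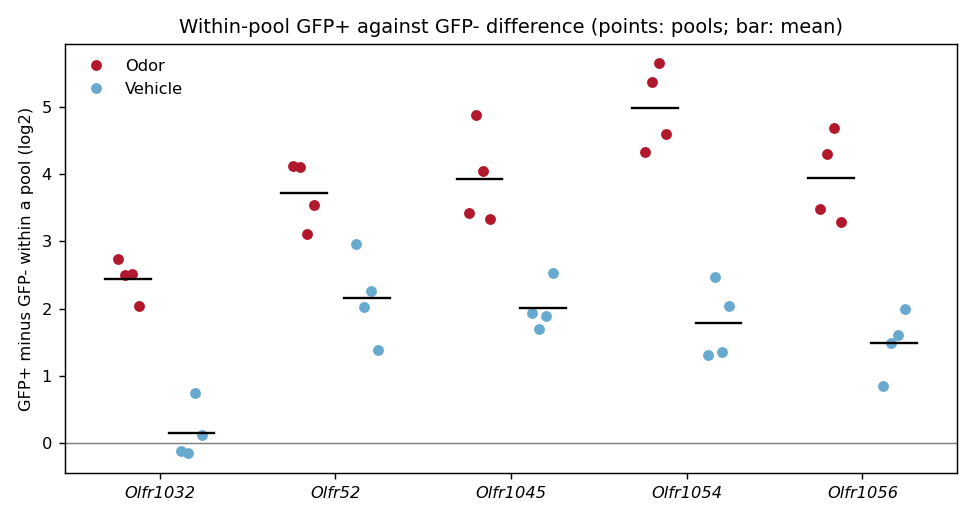
GFP+ minus GFP- difference within a pool (vertical axis, log2) for each receptor, with 4 Odor pools (red, left) and 4 Vehicle pools (blue, right) and a bar at the mean. Odor points of Olfr1032 and Olfr1054 rest on GFP- values at or below the vomeronasal level, and every Odor pool lies above every Vehicle pool of the same gene.

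The receptors differed in where their RNA was found without the odour. In Vehicle pools Olfr52 was higher in GFP+ cells by a mean of 2.16, Olfr1045 by 2.02, Olfr1054 by 1.79 and Olfr1056 by 1.49, and the fractions did not overlap for these 4. Olfr1032 differed by 0.15 between the Vehicle fractions, which overlapped. Over all odorant receptors the median was 0.75, and 48.6% of them lay higher in GFP+ cells without overlap, as did 23.8% of all genes. In Odor pools the difference was 3.94 for Olfr1056 and 3.92 for Olfr1045, and measured 4.98 (at least 4.23) for Olfr1054, 3.72 (3.63 with 2 arrays raised) for Olfr52 and 2.45 (at least 1.62) for Olfr1032. The fractions did not overlap for any of the 5, and the median over all odorant receptors was 0.62. Non-overlap of this kind held for 44.0% of receptors and 16.3% of all genes.

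Each gene thus had the same lowest group, Odor GFP-. For Olfr1045, Olfr52 and Olfr1054, the GFP+ groups of both exposures were the highest and overlapped, with Vehicle GFP- between them and Odor GFP-. Olfr1056 kept the order Odor GFP+, Vehicle GFP+, Vehicle GFP-, Odor GFP- with no overlap between neighbours. Olfr1032 had Odor GFP+ alone on top, and its Vehicle GFP+ and Vehicle GFP- arrays could not be ordered (7.12 ± 0.10 and 6.97 ± 0.45, SD, n = 4 each). The pooled SD within groups was smallest for Olfr1032 (0.33) and largest for Olfr1045 (0.61).

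With values centred per gene, the root mean square difference between 2 receptors over the 16 arrays was smallest for Olfr1045 and Olfr1056 (0.486) and next smallest for the neighbours Olfr52 and Olfr1045 (0.531) and Olfr1054 and Olfr1056 (0.557). It was largest for Olfr1032 and Olfr1054 (1.25). From the mean profile of the 5, Olfr1056 differed by 0.293, Olfr1045 by 0.361, Olfr52 by 0.437, Olfr1054 by 0.552 and Olfr1032 by 0.771, against a median of 1.37 over all odorant receptors. All points share the same 16 arrays, the members entered the mean, and the dim Odor GFP- values of Olfr1032, Olfr1054 and Olfr52 entered as measured.

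The receptors between the 5 along the chromosome differed among themselves in GFP- cells. Of the 16 other measured receptors from Olfr1032 to Olfr1056, 7 lay below 0 in GFP- cells, and the median was 0.12. Of all odorant receptors 34.9% lay below 0. In 4 of the 16 the measured Odor GFP- arrays lay entirely below the Vehicle ones, against 4.77% of all odorant receptors. The ends of this span were set by the 5, which were chosen from these arrays. In limma 1 of the 16 fell, where 2.02% of all odorant receptors passed as lower. None rose, and 0 changed in GFP+ cells or in the ratio. The one that fell was Olfr1034, at 8.40 ± 0.53 in Odor GFP- and 9.99 ± 0.48 in Vehicle GFP- cells (SD, n = 4 each), a difference of -1.59 (SE 0.29, limma, adjusted p = 0.0362). This call was lost when any of 10 of the 16 arrays was left out, reaching an adjusted p of 0.167, and without Odor pools 2 and 4 (adjusted p = 0.335). The difference stayed between -1.76 and -1.34 when single arrays were left out.

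Next to Olfr1034 and Olfr1032, Olfr1033 averaged 6.25 ± 0.91 in Odor GFP- and 7.75 ± 0.40 in Vehicle GFP- cells (SD, n = 4 each). Its arrays did not overlap, its Odor GFP- mean was at or below the vomeronasal level, and its difference of -1.50 did not pass (limma, adjusted p = 0.179). On the other side of Olfr1032, Olfr1031 differed by 0.13 and Olfr1030 by 0.05 in GFP- cells (limma, adjusted p = 0.970 and 0.993). Beside Olfr52, Olfr1044 differed by -1.25 (limma, adjusted p = 0.345), and 2 places beyond Olfr1045, Olfr1047 differed by -1.49 (limma, adjusted p = 0.436). The Odor GFP- mean of Olfr1047, 6.29, was close to the vomeronasal level of 6.26. Between Olfr1045 and Olfr1047, Olfr1046 differed by 0.21 and was higher in GFP- than in GFP+ cells in both exposures. Of the receptors flanking Olfr1054 and Olfr1056, Olfr1052 differed by 0.78 and Olfr1057 by -0.49, and neither passed. Both GFP- means of Olfr1053 and of Olfr1058, the next receptor out, were at or below the vomeronasal level, so no difference is read from them.

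**Figure D4:**
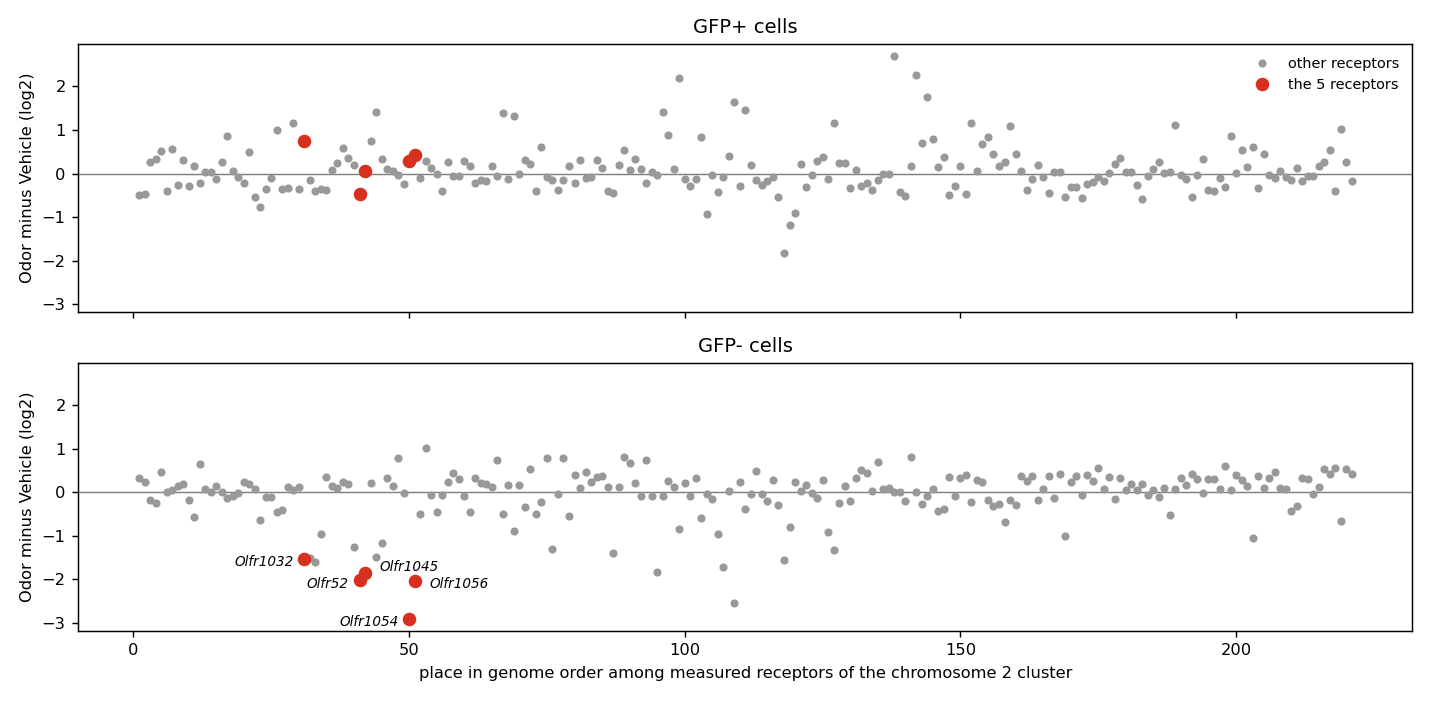
Difference between Odor and Vehicle (vertical axes, log2) in GFP+ cells (top) and GFP- cells (bottom) of the 221 measured receptors of the chromosome 2 cluster, by place in genome order, with the 5 receptors in red. In GFP- cells the 5 lie between places 31 and 51 at -1.54 and below, with receptors near 0 between them.

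Receptors of the same MOR families on chromosome 2 did not follow a single pattern. The set of 13 relatives was assembled after values of these arrays were known, and 0 of the 13 passed in GFP- cells. MOR185 had 7 measured relatives of Olfr52 and Olfr1045. Of these Olfr1044, Olfr1057 and Olfr1062 were higher in GFP+ than in GFP- cells of Vehicle pools and differed by -1.25, -0.49 and -0.45 between Odor and Vehicle GFP- cells. Olfr1039, Olfr1042 and Olfr1043 were higher in GFP- cells of Vehicle pools, with GFP+ minus GFP- differences of -3.30, -4.85 and -5.24, and differed by 0.15 to 0.22 between exposures in GFP- cells. Olfr1040 was at or below the vomeronasal level in all groups.

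The 5 measured relatives of Olfr1054 in MOR188 included 2 with a higher ratio after smoke. Olfr1087 averaged 12.0 ± 0.35 in Odor GFP+ and 10.6 ± 0.10 in Vehicle GFP+ cells (SD, n = 4 each), a rise of 1.39 (limma, adjusted p = 0.00898), and differed by -0.49 in GFP- cells, with a ratio shift of 1.88 (limma, adjusted p = 0.00977). Olfr1090 had a ratio shift of 2.22 (limma, adjusted p = 0.0101), with differences of 1.32 in GFP+ and -0.89 in GFP- cells that did not pass. In Olfr1087 and Olfr1090 the GFP- difference made up 26.2% and 40.4% of the shift, and in Olfr1054 87.9% with its dim values raised. The GFP+ call of Olfr1087 was lost without Odor GFP+ pool 2 (adjusted p = 0.0515). Without Odor pools 2 and 4 the calls of Olfr1087 and Olfr1090 were lost, with ratio shift adjusted p of 0.205 and 0.569. Olfr1047, also MOR188, had a ratio shift of 2.91 (limma, adjusted p = 0.0722), of which the GFP- difference made up 51.1%. Its Odor GFP- mean of 6.29 ± 0.50 (SD, n = 4) was close to the vomeronasal level of 6.26, so these sizes are uncertain. Olfr1056 had no other measured MOR186 relative, and Olfr1032 had 1 in MOR199, Olfr1033.

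**Figure D5:**
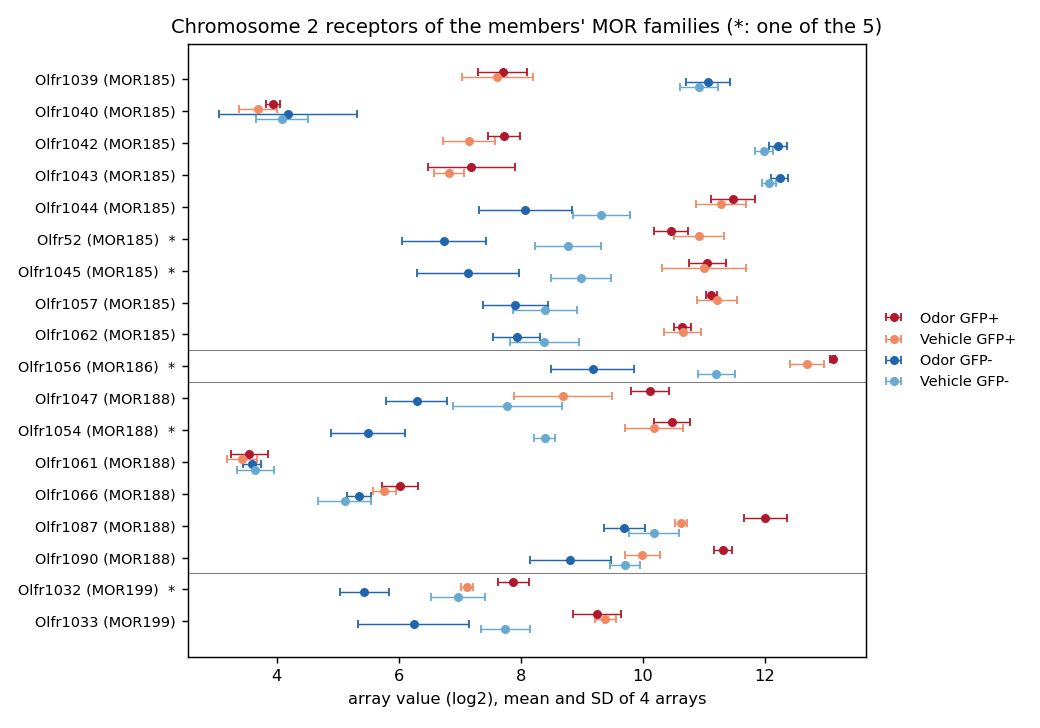
Mean array value and SD of 4 arrays (horizontal axis, log2) in the 4 groups for the 18 measured chromosome 2 receptors of families MOR185, MOR186, MOR188 and MOR199, with an asterisk on the 5 receptors described here. Olfr1039, Olfr1042 and Olfr1043 are highest in GFP- cells of both exposures. The mean in Odor GFP- cells is the lowest of the 4 groups for each of the 5 receptors. The same holds for their relatives Olfr1033, Olfr1044, Olfr1047, Olfr1057, Olfr1062, Olfr1087 and Olfr1090. Levels of different probe sets are not comparable.

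Outside the set, 279 odorant receptors of chromosome 2 were tested. In GFP- cells 7 fell (2.51%) and 0 rose in limma, where 2.02% of all odorant receptors passed as lower and 0.0917% as higher. In GFP+ cells 9 rose and 1 fell, against 1.37% and 0.0917% of all odorant receptors. For the ratio 12 rose and 0 fell, against 2.75% and 0.0917%. In the sort itself, 159 were higher and 49 lower in GFP+ than in GFP- cells of Odor pools, where 49.0% of all odorant receptors passed as higher and 22.0% as lower. In Vehicle pools 142 were higher and 53 lower, where 52.4% and 19.1% of all odorant receptors passed. With each array centred on its odorant receptors, the split was 110 higher and 90 lower in Odor and 109 higher and 97 lower in Vehicle pools. These comparisons share arrays, so the counts are not independent. Besides Olfr1034, the falls in GFP- cells were Olfr1137 at -2.55 (limma, adjusted p = 0.0418), Olfr1122 at -1.84 (adjusted p = 0.00538), Olfr1135 at -1.70 (adjusted p = 0.0111), Olfr360 at -1.36 (adjusted p = 0.0275), Olfr1099 at -1.31 (adjusted p = 0.0164) and Olfr1257 at -1.05 (adjusted p = 0.0110). Olfr1137 ended at or below the vomeronasal level in Odor GFP- cells, so its measured difference is read as a fall of at least 1.92. With dim values raised to that level, its GFP- call was lost (limma, adjusted p = 0.101). The call was lost in 20 of 24 alternatives. Among them, it was lost when any of 14 of the 16 arrays was left out (highest adjusted p 0.216). The measured difference of Olfr1137 stayed between -2.79 and -2.30 when single arrays were left out. Among the others, Olfr360 lost its GFP- call without any of 7 arrays (highest adjusted p 0.133), Olfr1099 without Odor GFP- pool 2 or 3 or Vehicle GFP- pool 1 (highest adjusted p 0.0770), and Olfr1257 without Vehicle GFP- pool 1 (adjusted p = 0.0549).

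The 7 falls differed in GFP+ cells. Olfr360 differed there by 1.14, Olfr1137 by 1.64 and Olfr1257 by 0.61, whereas Olfr1122 differed by -0.03, Olfr1135 by -0.08, Olfr1099 by -0.14 and Olfr1034 by -0.39, none past the threshold in GFP+ cells. Of the 33 genes with a higher ratio, 30 were odorant receptors and 15 lay on chromosome 2. These counts include 3 of the 5 receptors of the set, for which passing is not read as a test. The GFP- difference was over 50% of the shift in 14 of the 33 and 7 of the 15 as measured, and in 12 and 6 with dim values raised to the vomeronasal level. As members of the set were chosen by this measure, nothing is read from these counts. At the other end, Olfr1278 rose in GFP+ cells by 3.97 (limma, adjusted p = 1.78e-05) and differed by -0.44 in GFP- cells, so 9.98% of its ratio shift of 4.42 lay there.

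The genes with the profile most like the mean of the 5 were all odorant receptors. By root mean square difference over the 16 arrays they were Olfr1122 (0.405), Olfr1135 (0.407), Olfr1034 (0.428), Olfr1496 (0.471), Olfr1033 (0.490), Olfr982 (0.497), Olfr1044 (0.508) and Olfr430 (0.512). Of these Olfr1122, Olfr1135, Olfr1034, Olfr1033 and Olfr1044 lie on chromosome 2. Since likeness was measured on these arrays, the low GFP- values of these genes are part of the choice.

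Olfr1122 averaged 7.69 ± 0.57 in Odor GFP- and 9.53 ± 0.29 in Vehicle GFP- cells (SD, n = 4 each), and 11.7 ± 0.27 in Odor GFP+ and 11.7 ± 0.44 in Vehicle GFP+ cells. Olfr1135 averaged 8.13 ± 0.64 in Odor GFP- and 9.83 ± 0.27 in Vehicle GFP- cells, and 11.8 ± 0.38 in Odor GFP+ and 11.9 ± 0.25 in Vehicle GFP+ cells. Both had flat GFP+ means beside a GFP- difference, and their ratio shifts of 1.81 and 1.62 did not pass (limma, adjusted p = 0.0830 and 0.181). Olfr1496 and Olfr982 passed in GFP- cells at -2.0 and -1.76 (limma, adjusted p = 0.0111 and 0.00283) and in the ratio at 2.63 and 1.90 (limma, adjusted p = 0.0162 and 0.0215), and Olfr430 in GFP- cells at -1.22 (limma, adjusted p = 0.0229).

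Not all of these calls held when single arrays or pools were left out. Fewer arrays then also estimate the spread, so a call can be lost while its difference hardly moves. Olfr1122 kept its GFP- call without each single array and lost it without pool 1 of both exposures (adjusted p = 0.0678). Olfr1135 lost it without Odor GFP- pool 2, Vehicle GFP- pool 1 or Vehicle GFP- pool 2 (adjusted p of 0.0514 to 0.0549) and without Odor pools 2 and 4 (adjusted p = 0.308). Olfr430 lost it without any of 6 arrays (highest adjusted p 0.113), and Olfr982 lost its ratio call without any of 7 (highest adjusted p 0.0650). Without Odor pools 2 and 4, Olfr1496, Olfr982 and Olfr430 also lost their GFP- calls (adjusted p of 0.236, 0.236 and 0.655). Their differences were then -2.16, -1.59 and -1.07, and that of Olfr1135 was -1.60. The 5 receptors' own GFP- differences without Odor pools 2 and 4 were -1.62 for Olfr1032, -1.86 for Olfr52, -1.87 for Olfr1045, -2.73 for Olfr1054 and -2.21 for Olfr1056.

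By gene, the 3 nearest profiles to Olfr1054 were Olfr1122 (0.522), Olfr1056 (0.557) and Olfr1135 (0.656), and to Olfr1056 they were Olfr1135 (0.341), Olfr1044 (0.419) and Olfr1496 (0.427). For Olfr52 they were Olfr1034 (0.288), Olfr876 (0.433) and Olfr1045 (0.531), and for Olfr1045 they were Olfr876 (0.480), Olfr1056 (0.486) and Olfr52 (0.531). Olfr1032 was nearest to Olfr1161 (0.411), Olfr360 (0.445) and Olfr777 (0.465), which were not among the 3 nearest of any of the other 4. Between Odor and Vehicle, Olfr1161 differed by 1.16 in GFP+ and -1.32 in GFP- cells, Olfr360 by 1.14 and -1.36, and Olfr777 by 0.83 and -1.28, beside 0.76 and -1.54 for Olfr1032.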

How the data were processed

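The deposited table holds log2 array values of 28846 probe sets. The authors used Affymetrix Expression Console, per the submitters' processing notes; no source used here gives its version, algorithm or normalization. Total RNA of 50 to 100 ng was labelled, per the labels. Of 19572 probe sets with 1 gene symbol, the one with the highest mean was kept per gene. Group means of all 16 arrays were fitted with limma 3.58.1 (lmFit, eBayes) in R 4.3.3, without a block, with two-sided p-values adjusted by Benjamini-Hochberg over 19505 genes at 0.05; the fit was tested on simulated data. The fractions of a pool come from the same mice, and residuals correlated with r of 0.22, 0.091, 0.093 and 0.13 in Odor and 0.21, 0.082, 0.045 and 0.20 in Vehicle pools. Names and order came from RefSeq (GRCm38.p6). Named genes were the 5 receptors, S100a5, the 2 nearest measured receptors on each side, the nearest profiles (8 to the mean, 3 to each gene) and up to 8 called chromosome 2 receptors per direction; protein identity was not used here, and other receptors were named by family or position after their values were seen. The receptors and lists were chosen with earlier results of these data known. Alternatives left out each array or pools, added blocks, or changed scaling, probe set, low values, spread or arrays fitted.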

Additional observations from a re-analysis of the deposited data

Results flagged for a closer look

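In the Vehicle GFP- group, the lowest array of Olfr1045 (8.25, pool 3) stood apart from the other 3, which lay between 9.18 and 9.28. It was the only array singled out by Dixon's criterion among 20 sets of 4 arrays, and chance singles out about 1 in 20. The ratio between the fractions differed between exposures, by the limma interaction term, for 12 named receptors outside the set. On chromosome 2 the ratio shifts were 4.42 for Olfr1278, 4.19 for Olfr1137, 2.88 for Olfr1313, 2.50 for Olfr360, 2.48 for Olfr1161, 2.22 for Olfr1090, 1.88 for Olfr1087, 1.74 for Olfr1307 and 1.66 for Olfr1257. Elsewhere they were 2.63 for Olfr1496, 2.11 for Olfr777 and 1.90 for Olfr982. Without Odor pools 2 and 4 only Olfr1278 and Olfr360 of these 12 kept the call (highest adjusted p over the alternatives 0.0298 and 0.0473). With the pool as a block the ratio calls of Olfr1161 and Olfr1307 were lost (limma, adjusted p = 0.105 and 0.182), while the other 10 held.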

How the results depend on the processing

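Under the alternatives, 346 values of the 5 receptors moved by less than the SD between replicates and 4 by more. Those 4 came from raising low values to the vomeronasal level: the GFP- difference was -0.71 for Olfr1032 and -2.14 for Olfr1054, and the ratio shift 1.47 and 2.43. No called value changed sign. For the other chromosome 2 receptors, leaving out each array in turn gave 1 to 8 lower in GFP- cells, 4 to 12 higher and 0 to 1 lower in GFP+ cells. The count in GFP- cells was 1 without Vehicle GFP- pool 1, 2 without Odor GFP- pool 2, 3 without Vehicle GFP- pool 2, and 4 without Odor GFP- pool 3 or Vehicle GFP- pool 4, and the GFP+ count was 4 without Odor GFP+ pool 2. Without Odor pools 2 and 4, 1 was higher and 0 lower in GFP+ cells, 1 lower in GFP- cells and 2 higher in the ratio. Without pool 1 of both exposures, 2 were lower in GFP- and 0 in GFP+ cells. With only the arrays of the comparison, 2 were lower in GFP- and 0 in GFP+ cells. Quantile normalization gave 0 lower in GFP+ cells. Centred on odorant receptors, 14 were higher in GFP+ cells, and 97 in Vehicle and 90 in Odor pools were lower in GFP+ than GFP- cells. With the pool as a block, 11 were higher in the ratio; with the replicate number as a block, which pairs no animals across exposures, 11 were higher in the ratio and 0 lower in GFP+ cells. The cause of these shifts was not tested.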
